A study of Bos taurus with 12 samples.

Results

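SLC16A1, SLC9A3, SLC4A7, SLC5A1, CA4 and SCNN1A encode membrane proteins that handle acid, sodium, short-chain fatty acids and glucose in the rumen wall, and they were followed through a grain challenge. The members were all probe sets whose only gene symbol in the array's probe-to-gene table is 1 of these 6 genes, which gave 9 probe sets of the 24016 that are not controls. SLC9A3 has 3 of them, called A, B and C below in the order of their identifiers, SLC5A1 has 2, called A and B, and each other gene has 1. The identifiers stand in the panel titles of the plot of values by week, and the table gives SLC9A3 B and C the same source transcript. The tissue was papillae from the ventral sac of the rumen of 4 Holstein dairy cows, each sampled at week 0 on a high forage diet, which served as the control, and again in week 1 and week 3 of the grain challenge. That gave 4 arrays a week and 12 in all. The same animals stand in all 3 groups, and none of the 12 arrays comes from a cow kept on forage at week 1 or week 3, so diet and time cannot be told apart.

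Rumen papillae are finger-like folds lined by a layered, keratinized epithelium. Microbes in the rumen ferment feed to short-chain fatty acids, which the epithelium absorbs together with sodium, and grain ferments faster and to more acid than forage. The epithelium keeps its own pH by sending protons back to the lumen in exchange for sodium and by taking up bicarbonate, and it passes fatty acids, lactate and ketone bodies on to the blood. Glucose is mostly fermented before it can be absorbed, but the rumen epithelium also carries sodium-coupled glucose transport.

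All values are log2 intensities centred by the authors, so that the 12 values of a probe set have a median of 0. They show how 1 probe set differs between arrays and hold no level, so the genes cannot be ranked by abundance, and the presence of the tissue's marker genes could not be checked. Papillae hold several cell types, and in such bulk samples fewer cells of a type and less RNA per cell cannot be told apart. The signal of 18 spiked-in control probe sets was higher on 3 arrays (week 0 from cow 1, week 1 from cow 1 and week 0 from cow 2), with means of 0.48 to 0.72, than on the remaining 9, with means from -0.32 to 0.055. The main results are therefore also given without these 3 spike-high arrays. Week 0 then holds only cows 3 and 4 and week 1 only cows 2, 3 and 4, while week 3 keeps all 4 cows. That fit has no block, so its differences mix the cow with the week. Weeks were compared with limma, with Benjamini-Hochberg adjustment over all 24016 probe sets.

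No transporter probe set passed an adjusted p of 0.05 in any comparison of weeks, with or without the cow as a block. The share of all probe sets that passed was 0 percent in each of the 3 comparisons, and with the block it was 0.00833 percent (2 probe sets) for week 1 against week 0 and 0 percent for the other comparisons. At an unadjusted p under 0.05, 2 of the 9 member probe sets passed for week 1 against week 0, where 5.15 percent of all probe sets did (1237 probe sets). Both belong to SLC5A1 and so stand for 1 gene. For week 3 against week 0 the count was 3 of 9 members beside 3.88 percent of all probe sets (933), and for week 3 against week 1 it was 2 of 9 beside 4.88 percent (1172). With the cow as a block the counts were 2, 4 and 2 of 9, beside 7.61, 6.12 and 7.58 percent. In the F test over the 3 weeks 0 of 9 passed the adjusted threshold (0 percent of all probe sets), 2 of 9 passed the unadjusted one (5.01 percent), and 4 of 9 did with the block (8.24 percent). The transporters were chosen with earlier results of these data known, so these counts are no test of an excess over the shares.

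**Figure D1:**
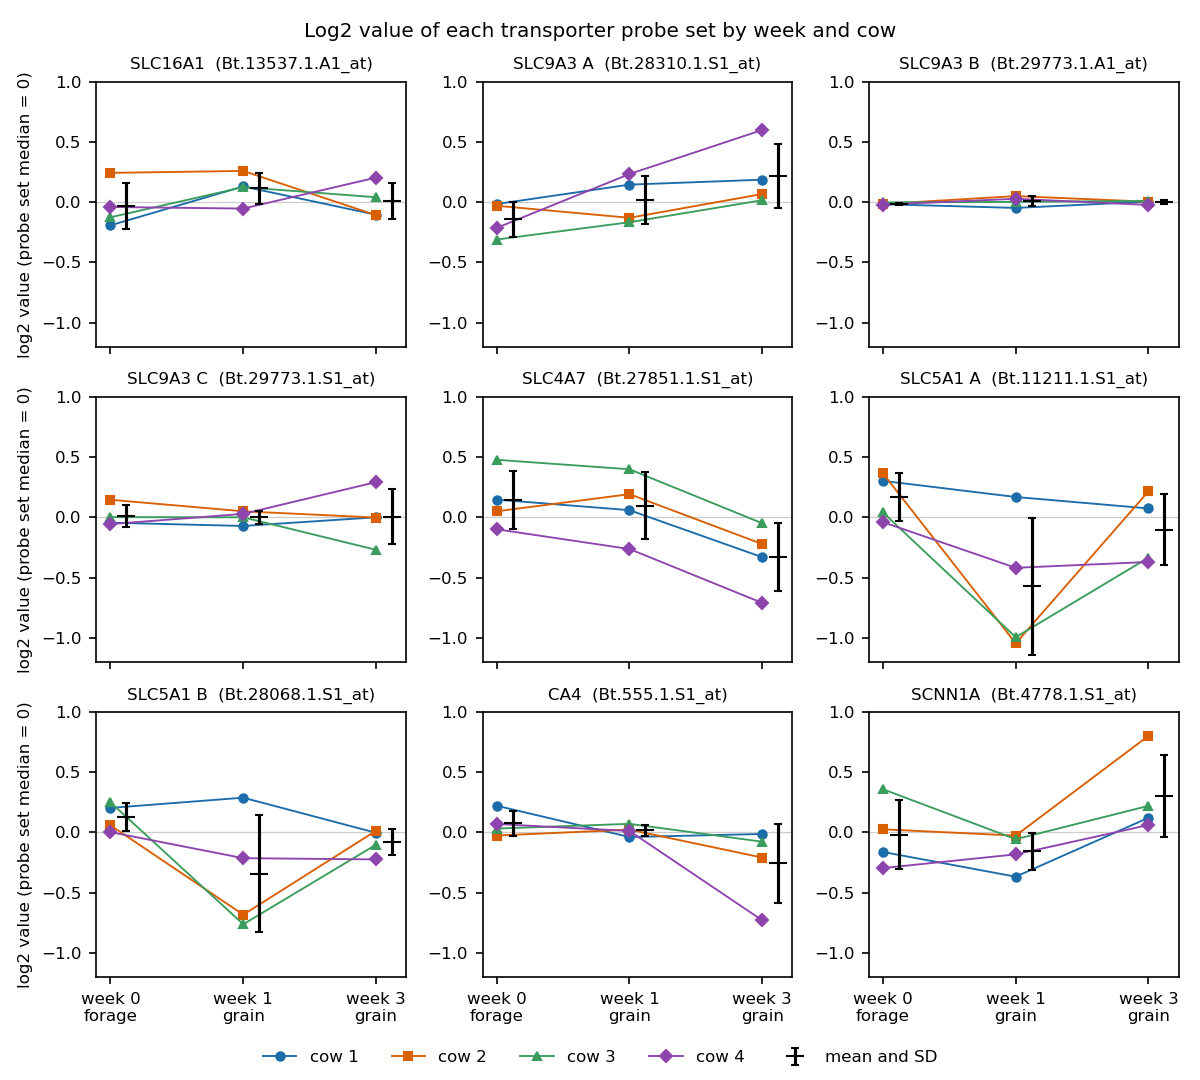
Log2 value (vertical axis, centred per probe set) of the 9 transporter probe sets at week 0 on forage and weeks 1 and 3 on grain. Lines join the arrays of 1 cow, and the black marks are the mean and SD of the 4 cows; SLC4A7 is lowest at week 3 in each of the 4 cows, while SLC5A1 is lowest at week 1 in cows 2 and 3.

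SLC9A3 encodes the sodium and proton exchanger NHE3, which brings sodium into epithelial cells from the lumen and sends protons out. Probe set SLC9A3 A was at -0.016, -0.030, -0.31 and -0.21 in cows 1 to 4 at week 0, at 0.15, -0.13, -0.17 and 0.23 at week 1, and at 0.19, 0.067, 0.016 and 0.60 at week 3. Every array of week 3 lay above every array of week 0, and cow 4 at week 3 was the highest of the 12. The mean went from -0.14 ± 0.14 (SD, n = 4) at week 0 to 0.020 ± 0.20 at week 1 and 0.22 ± 0.26 at week 3. The difference between week 3 and week 0 was 0.36 ± 0.14 (SE), or 1.28-fold higher, and it was above 0 in 4 of 4 cows (unadjusted p = 0.0258; adjusted p = 0.901; limma). With the cow as a block the unadjusted p was 0.0109 and the adjusted p 0.579. Without the 3 spike-high arrays the difference was 0.48 ± 0.18 (unadjusted p = 0.0323), but week 0 was then left with cows 3 and 4, its lowest. Without cow 4 it was 0.21 ± 0.11 (unadjusted p = 0.0998). Week 1 stood between the other weeks, 0.16 ± 0.14 above week 0 in 3 of 4 cows (0.068 ± 0.11 without cow 4) and 0.20 ± 0.14 below week 3 in 4 of 4.

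The weekly means of the other 2 probe sets, SLC9A3 B and SLC9A3 C, lay close to 0. SLC9A3 B stayed between -0.048 and 0.050 on all 12 arrays, and its SD of 0.0255 was at the 3.62 percentile of all probe sets. Its difference between week 3 and week 0 was 0.012 ± 0.026, beside a median of 0.019 over all probe sets. The sign of its differences turned once the arrays were centred on their medians or quantile normalized. Whether SLC9A3 B rises above background cannot be seen from centred values, so its flat course is no measure of a steady transcript. SLC9A3 C was between -0.057 and 0.15 at week 0, between -0.072 and 0.050 at week 1 and between -0.27 and 0.29 at week 3. At week 3 it was highest in cow 4 and lowest in cow 3, while cows 1 and 2 were at 0.0000057 and -0.0021, and its difference from week 0 was -0.0064 ± 0.098.

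The response of the 3 SLC9A3 probe sets was compared pair by pair with exact two-sided permutation tests of 4 arrays against 4, for which the smallest possible p is 0.0286. From week 0 to week 3, SLC9A3 A exceeded SLC9A3 B by 0.35 and SLC9A3 C by 0.37, in 4 of 4 cows for each pair. SLC9A3 B hardly varied, so the pair with it mostly repeats the difference of SLC9A3 A alone, 0.36. The arrays of SLC9A3 A had already been seen not to overlap between these weeks, so the pair with SLC9A3 B is no separate result. Both exact permutation tests gave p = 0.0286, the smallest possible value, and an adjusted p of 0.129 over the 9 tests. These tests treat the arrays as independent although the same cows supply both weeks. An exact test that flips the sign of each cow's difference, added after the data were seen, gave p = 0.125 for both, the smallest it can give with 4 cows, and an adjusted p of 0.45. The remaining 7 tests had an exact p of 0.229 to 0.943. Over the 12 arrays SLC9A3 A had a Pearson r of -0.20 with SLC9A3 B and of 0.47 with SLC9A3 C, and the latter was -0.029 without the 2 arrays farthest from the median of SLC9A3 A.

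SLC4A7 encodes the sodium and bicarbonate cotransporter NBCn1, which loads cells with base. Its probe set was at 0.15, 0.050, 0.48 and -0.099 in cows 1 to 4 at week 0, at 0.059, 0.19, 0.40 and -0.26 at week 1, and at -0.33, -0.22, -0.050 and -0.71 at week 3. Week 3 was the lowest of the 3 weeks in each of the 4 cows, whereas the groups of arrays overlapped because the cows stood far apart, with cow 3 at the top and cow 4 at the bottom of every week. The means were 0.14 ± 0.24, 0.096 ± 0.28 and -0.33 ± 0.28 (SD, n = 4). From week 0 to week 3 the 4 cows differed by -0.48, -0.27, -0.53 and -0.61, and from week 1 to week 3 by -0.39, -0.41, -0.45 and -0.45. The spread of these within-cow differences was smaller than the spread between cows at any week.

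The difference of SLC4A7 between week 3 and week 0 was -0.47 ± 0.18 (SE), or 1.39-fold lower, with an unadjusted p of 0.0231 and an adjusted p of 0.901. With the cow as a block the SE was 0.057, the 95% interval ran from -0.60 to -0.34, and the unadjusted p was 4.2e-05, the third smallest of all probe sets. The adjusted p was then 0.158. The difference between week 3 and week 1 was -0.42 ± 0.18 (unadjusted p = 0.0367; adjusted p = 0.989), and with the block the SE was 0.057, the unadjusted p 8.67e-05 and the adjusted p 0.139. Between week 1 and week 0 it was -0.047 ± 0.18, with a blocked 95% interval of -0.18 to 0.085, and it was lower in 3 of 4 cows. In limma's F test with the block SLC4A7 ranked 19 of 24016, with an unadjusted p of 7.36e-05 and an adjusted p of 0.0930. Without the 3 spike-high arrays the difference between week 3 and week 0 was -0.52 ± 0.26 (unadjusted p = 0.0827). That fit has no block and leaves only cows 3 and 4, the top and bottom cows, at week 0. Its SE thus holds the spread between cows, and within cows 3 and 4 the differences were -0.53 and -0.61.

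CA4 encodes a carbonic anhydrase anchored on the cell surface, which speeds the exchange between carbon dioxide and bicarbonate. Its probe set was at 0.22, -0.026, 0.032 and 0.070 at week 0, at -0.038, 0.024, 0.071 and 0.012 at week 1, and at -0.012, -0.21, -0.077 and -0.73 at week 3. Each cow was lower at week 3 than at week 0, and cow 4 at week 3 lay far below every other array. The mean at week 3 was -0.26 ± 0.32 against 0.075 ± 0.11 at week 0 and 0.017 ± 0.045 at week 1 (SD, n = 4). The difference between week 3 and week 0 was -0.33 ± 0.13, or 1.26-fold lower (unadjusted p = 0.0306; adjusted p = 0.901; with the block 0.0302 and 0.710). Leaving out cow 4 at week 3 gave a smaller difference with a smaller SE, -0.17 ± 0.065 (unadjusted p = 0.0244). Leaving out all arrays of cow 4 gave -0.18 ± 0.078 (unadjusted p = 0.0579). Without the 3 spike-high arrays the difference was -0.31 ± 0.18 (unadjusted p = 0.136). Between week 1 and week 0 the difference was -0.057 ± 0.13, with 2 cows higher and 2 lower.

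SCNN1A encodes the alpha subunit of the epithelial sodium channel, which lets sodium enter through the apical membrane. Its probe set was at -0.16, 0.026, 0.36 and -0.30 at week 0, at -0.37, -0.026, -0.056 and -0.18 at week 1, and at 0.12, 0.80, 0.22 and 0.062 at week 3. All 4 arrays of week 3 were above all 4 of week 1, and week 3 of cow 2 was the highest of the 12. The means were -0.018 ± 0.28, -0.16 ± 0.15 and 0.30 ± 0.34 (SD, n = 4). Week 3 was above week 1 by 0.46 ± 0.18, or 1.37-fold (unadjusted p = 0.0275; adjusted p = 0.941; with the block 0.00938 and 0.40), in 4 of 4 cows. Week 3 was above week 0 by 0.32 ± 0.18 in 3 of 4 cows (unadjusted p = 0.104, 0.0448 with the block), and cow 3 was the exception with -0.14. Without week 3 of cow 2 these differences were 0.29 and 0.15, and without the 3 spike-high arrays 0.39 ± 0.22 and 0.27 ± 0.24.

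SLC16A1 encodes the monocarboxylate transporter MCT1, which moves short-chain fatty acids, lactate and ketone bodies together with a proton. Its probe set was at -0.19, 0.24, -0.13 and -0.040 at week 0, at 0.13, 0.26, 0.12 and -0.053 at week 1, and at -0.10, -0.11, 0.040 and 0.20 at week 3. The 3 weeks overlapped throughout, and the cows moved in different directions. Week 1 was above week 0 by 0.14 ± 0.11 in 3 of 4 cows (95% interval -0.091 to 0.38; unadjusted p = 0.203). Without the week 0 array of cow 2, the highest of that week, it was 0.23 ± 0.091 (unadjusted p = 0.0293; adjusted p = 0.805), and without the 3 spike-high arrays 0.19 ± 0.12 (unadjusted p = 0.147). Week 3 differed from week 0 by 0.037 ± 0.11 (95% interval -0.20 to 0.27; unadjusted p = 0.736), a difference whose sign turned when cow 3 or cow 4 was left out. Both 95% intervals include 0 and reach no farther from it than 0.38 on the log2 scale.

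SLC5A1 encodes the sodium and glucose cotransporter SGLT1. Probe set SLC5A1 A was at 0.30, 0.36, 0.040 and -0.040 at week 0, at 0.17, -1.04, -0.99 and -0.42 at week 1, and at 0.073, 0.22, -0.33 and -0.37 at week 3. Cows 2 and 3 were far lower at week 1 than at any other time, cow 4 was lower at both grain weeks, and cow 1 differed little between weeks. Probe set SLC5A1 B was at 0.20, 0.059, 0.25 and 0.0029 at week 0, at 0.29, -0.68, -0.76 and -0.21 at week 1, and at -0.0029, 0.014, -0.10 and -0.22 at week 3. It placed the cows in a similar way, with cows 2 and 3 lowest at week 1 and cow 1 highest then. Over the 12 arrays the r between both probe sets was 0.93, and 0.76 without the 2 arrays farthest from the median, which are week 1 of cows 2 and 3.

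The difference between week 1 and week 0 was -0.74 ± 0.26 (SE) in SLC5A1 A, or 1.67-fold lower, in 4 of 4 cows (unadjusted p = 0.0154; adjusted p = 0.763; with the block 0.0109 and 0.436). In SLC5A1 B it was -0.47 ± 0.19, lower in 3 of 4 cows with cow 1 at 0.085 (unadjusted p = 0.0355; adjusted p = 0.763; with the block 0.0342 and 0.591). Without cow 1 the differences were -0.94 and -0.66, without cow 2 they were -0.52 and -0.38, and without cow 3 they were -0.64 and -0.29 (unadjusted p = 0.0692 and 0.223). Without the 3 spike-high arrays, 2 of which are cow 1, they were -0.82 ± 0.24 and -0.68 ± 0.17 (unadjusted p = 0.0111 and 0.00470; adjusted p = 0.275 for both). At week 3 both probe sets were below week 0 in 4 of 4 cows, by a mean of -0.27 ± 0.26 and -0.21 ± 0.19, with unadjusted p of 0.314 and 0.312. Without the 3 spike-high arrays these were -0.10 ± 0.23 and -0.20 ± 0.16 (unadjusted p = 0.664 and 0.240). From week 1 to week 3 the differences were 0.47 ± 0.26 and 0.26 ± 0.19, with 3 of 4 and 2 of 4 cows higher, and without the 3 arrays 0.72 ± 0.20 and 0.47 ± 0.14 (unadjusted p = 0.00909 and 0.0115).

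**Figure D2:**
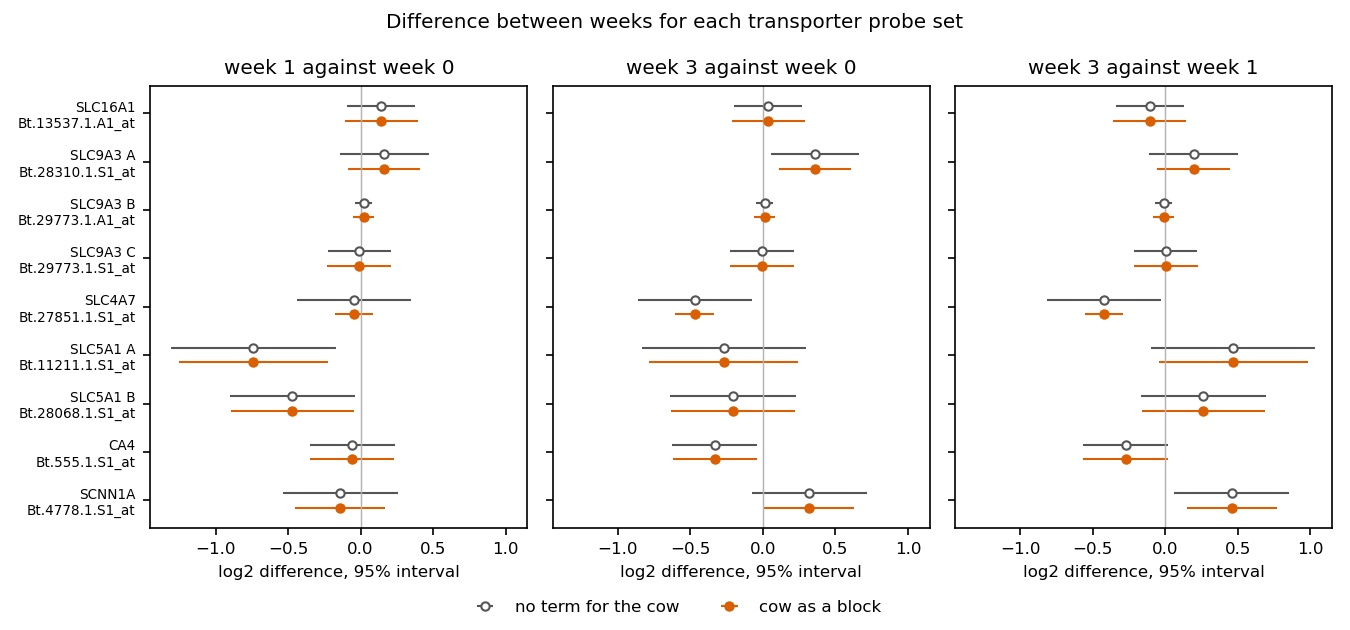
Difference between weeks (horizontal axis, log2) with its 95% interval for the 9 transporter probe sets, without a term for the cow (open points) and with the cow as a block (filled points). The interval of SLC4A7 shrinks most under the block, from an SE of 0.18 to 0.057, while that of SLC5A1 hardly changes.

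Direction across the cows was set against the same count over the whole array. For week 1 against week 0, 0 of 9 member probe sets were higher in all 4 cows (6.91 percent of all probe sets) and 1 was lower in all 4 (3.39 percent), and the groups of 0 members did not overlap (2.69 percent). For week 3 against week 0, 1 was higher in all 4 cows (36.3 percent), 4 were lower in all 4 (4.63 percent), and the groups of 1 did not overlap (3.48 percent). The 4 were SLC4A7, CA4 and both SLC5A1 probe sets, so they stand for 3 genes, and the 1 higher was SLC9A3 A. For week 3 against week 1, 2 were higher in all 4 cows (5.12 percent), 1 was lower (4.59 percent), and the groups of 1 did not overlap (2.45 percent). These were SLC9A3 A and SCNN1A on the higher side, the latter without overlap, and SLC4A7 on the lower side. Being higher at week 3 than at week 0 in all 4 cows was common on these arrays, so this direction alone does not set SLC9A3 A apart. The median of all probe sets was itself higher at week 3 in each cow, and the median difference over all probe sets was 0.019. That share therefore counts probe sets with very small differences, whereas SLC9A3 A rose by 0.097 to 0.81 within cows.

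The transporters differed in how much of their variance belonged to the cow and how much to the week. In SLC4A7 the cow held 51.1 percent of the variance over the 12 arrays, the week 45.6 percent, and 3.29 percent was left, against medians over all probe sets of 27.0, 12.4 and 57.7 percent. The week held 45.4 and 36.3 percent in the SLC5A1 probe sets, 41.3 percent in CA4, 40.2 percent in SCNN1A and 39.9 percent in SLC9A3 A. In SLC16A1 it held 16.6 percent, and 63.5 percent belonged to neither cow nor week. The SLC5A1 probe sets also varied most, with SDs over the 12 arrays of 0.473 and 0.334, at the 95.5 and 89.8 percentiles of all probe sets. SLC4A7 was at the 89.4 and SCNN1A at the 88.5 percentile, CA4 was at the 78.6, and SLC16A1 at the 61.0.

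Probe set A of SLC9A3, the acid exporter, ran opposite to SLC4A7, the base importer, over the arrays. The r between SLC9A3 A and SLC4A7 was -0.87 over the 12 arrays and -0.84 after each cow's mean was removed. Without the 2 arrays farthest from the median of SLC9A3 A it was -0.66. With SLC4A7, SLC9A3 B had an r of 0.12 (0.012 with cow means removed) and SLC9A3 C of -0.39 (-0.097). CA4 had an r of 0.73 with SLC4A7 and of -0.76 with SLC9A3 A, and without the 2 farthest arrays 0.47 and -0.35. Week 3 of cow 4 was the extreme array of all 3 genes. These arrays share 4 cows and 3 weeks and are not independent, so the coefficients are descriptions.

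**Figure D3:**
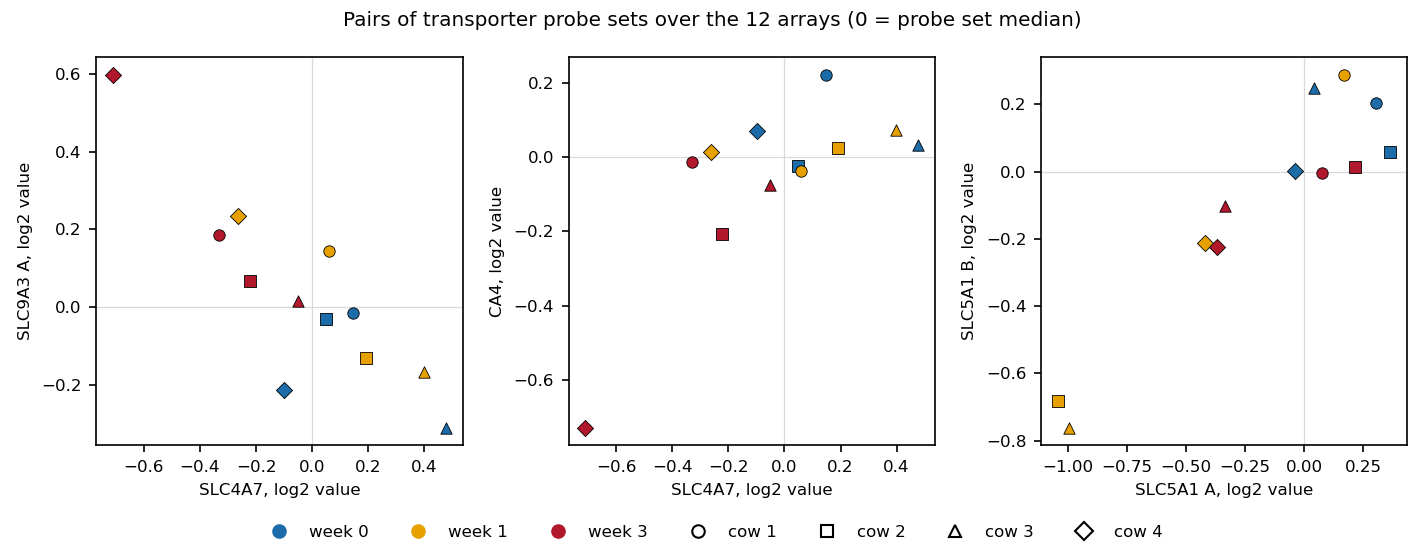
Log2 values of pairs of transporter probe sets on the 12 arrays, with colour for the week and shape for the cow. SLC4A7 runs against probe set A of SLC9A3 (r = -0.87, and -0.66 without 2 arrays; B and C are at 0.12 and -0.39), CA4 leans on cow 4 at week 3, and the pair of SLC5A1 probe sets (r = 0.93) on week 1 of cows 2 and 3.

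The genes whose pattern over the 12 arrays was most like that of each transporter were found by Pearson r among the 9155 named genes, each represented by its probe set of largest SD. SLC16A1 was nearest to ACAT1, a mitochondrial enzyme of ketone body and isoleucine metabolism (r = 0.84), then LAPTM4B (0.84) and HEATR1 (0.83). SLC9A3, through probe set A, was nearest to SUOX, sulfite oxidase (0.84), then IFITM5 (0.81) and GABARAPL2 (0.80). SLC4A7 was nearest to SFXN1, a mitochondrial serine carrier (0.86), then TM4SF1 (0.83) and ESD (0.82), and with cow means removed these were 0.76, 0.71 and 0.67. SLC5A1 was nearest to PERM1 (0.93), PDIA3, a protein disulfide isomerase of the endoplasmic reticulum (0.91), and CGN, the tight junction protein cingulin (0.91). CA4 was nearest to GALK1, galactokinase (0.94), RRP9 (0.90) and FSCN1 (0.85), and SCNN1A to CCNA2, a cyclin (0.90), CIT (0.88) and NAMPT (0.88). With cow means removed the r of the genes other than those of SLC4A7 was 0.77 to 0.96. With 12 arrays and 9155 genes such high values are also the highest of many.

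Other genes of acid, ion and nutrient transport were taken from 9 lists of 164 genes, of which 95 were measured. For week 1 against week 0, 3 of the 95 were higher and 3 lower at an unadjusted p under 0.05 (6 and 5 with the cow as a block), where 3.76 and 2.85 percent of all named genes were (5.25 and 4.99 percent with the block). For week 3 against week 0 the counts were 4 higher and 2 lower (6 and 5 with the block), beside 3.13 and 1.89 percent (5.07 and 2.95 percent). None of the 95 passed the adjusted threshold. The median difference of the 95 was 0.023 at week 1 and 0.020 at week 3, beside 0.024 and 0.017 over all named genes. On the same rule 1 of the 6 transporter genes was lower and 0 higher at week 1, and 1 was higher and 2 lower at week 3 (2 higher and 2 lower with the block). SLC9A3 counts as higher at week 3 through probe set A alone, while B and C were at 0.012 and -0.0064.

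In the list of sodium and proton exchange, which holds SLC9A3's relatives and scaffolds, 0 of 6 measured genes passed the unadjusted threshold in either comparison, and with the block 1 was lower at week 3. That gene, CHP2, encodes a calcium-binding cofactor of sodium and proton exchangers and was at -0.49 ± 0.27 in 4 of 4 cows (unadjusted p with the block 0.000951). In the list of bicarbonate and anion exchange, that of SLC4A7, 0 of 6 passed in either comparison with or without the block. Among the other carbonic anhydrases 1 of 9 passed at each week, both upward. CA5B, a mitochondrial form, was at 0.86 ± 0.24 at week 1 in 4 of 4 cows (unadjusted p = 0.00437; adjusted p = 0.711), and CA13, a cytosolic form, at 0.54 ± 0.24 at week 3 in 4 of 4 cows (unadjusted p = 0.0452; adjusted p = 0.901). CA4 itself was at -0.057 ± 0.13 at week 1, with 2 cows higher and 2 lower, and at -0.33 ± 0.13 at week 3.

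In the list of monocarboxylate transport 0 of 4 measured genes passed in either comparison with or without the block. Among them BSG, the chaperone basigin that brings MCT1 to the membrane, was at 0.12 ± 0.074 at week 1 and 0.085 ± 0.074 at week 3. In the list of the sodium channel, its regulators and the sodium pump 0 of 12 passed without the block. The partner subunits of SCNN1A were at 0.0011 ± 0.072 (SCNN1B) and 0.027 ± 0.058 (SCNN1G) at week 3, beside 0.32 ± 0.18 for SCNN1A itself, and the difference between the subunits was not tested. With the block 1 gene of that list was higher and 2 lower at week 1, and 1 was higher and 1 lower at week 3. ATP1B1, a subunit of the sodium pump, was at 0.42 and 0.52 in 4 of 4 cows (unadjusted p with the block 0.0246 and 0.00943), and HSD11B2, which inactivates cortisol in cells that respond to aldosterone, was at -0.96 and -0.88 in 4 of 4 cows (unadjusted p with the block 0.00483 and 0.00765). FXYD5, a regulator of the sodium pump, was at -0.44 at week 1 in 3 of 4 cows (unadjusted p with the block 0.0342). BSG, SCNN1B, SCNN1G, ATP1B1, HSD11B2, FXYD5 and CHP2 were chosen after their values were seen.

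In the list of glucose and other sugar transport, that of SLC5A1, 0 of 10 genes passed in either comparison with or without the block. Of the 18 measured proton pump genes 1 was lower at week 1 and 1 higher at week 3, and with the block 1 was lower at week 1 and 2 higher at week 3. ATP6AP1, an accessory subunit of the vesicular proton pump, was at -0.36 ± 0.091 at week 1 (unadjusted p = 0.00244; adjusted p = 0.697), and ATP6V0A1, a subunit of its membrane part, at 0.36 ± 0.11 at week 3 (unadjusted p = 0.00889; adjusted p = 0.901). Each had its sign in 4 of 4 cows.

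Of the 19 measured genes of amino acid, peptide, urea and water transport 2 were higher and 1 lower at week 1, and 2 were higher and 2 lower at week 3. With the block 3 were higher and 1 lower at week 1, and 2 were higher and 3 lower at week 3. The water channel AQP5 was higher in 4 of 4 cows at both weeks, at 0.47 ± 0.15 and 0.52 ± 0.15 (unadjusted p = 0.00909 and 0.00521). The amino acid transporter SLC6A14 was at -1.54 ± 0.60 at week 1 (unadjusted p = 0.0264), and SLC1A4 and SLC7A1 were at -0.50 ± 0.15 and -0.51 ± 0.19 at week 3 (unadjusted p = 0.00665 and 0.0233), each in 4 of 4 cows. SLC1A5 at week 1 (0.18 ± 0.060, 3 of 4 cows) and SLC1A1 at week 3 (0.43 ± 0.18, 4 of 4 cows), both amino acid transporters, complete the counts without the block. They were named after their values were seen. The adjusted p of AQP5, SLC6A14, SLC1A4 and SLC7A1 was 0.763 at week 1 and 0.901 at week 3. Of the 11 measured chloride and potassium channels and cotransporters 1 was lower at week 1 and 0 passed at week 3. With the block 1 was higher and 1 lower at week 1, and 0 passed at week 3. CFTR, a chloride channel, was at -0.12 ± 0.040 at week 1 in 4 of 4 cows (unadjusted p = 0.0119).

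**Figure D4:**
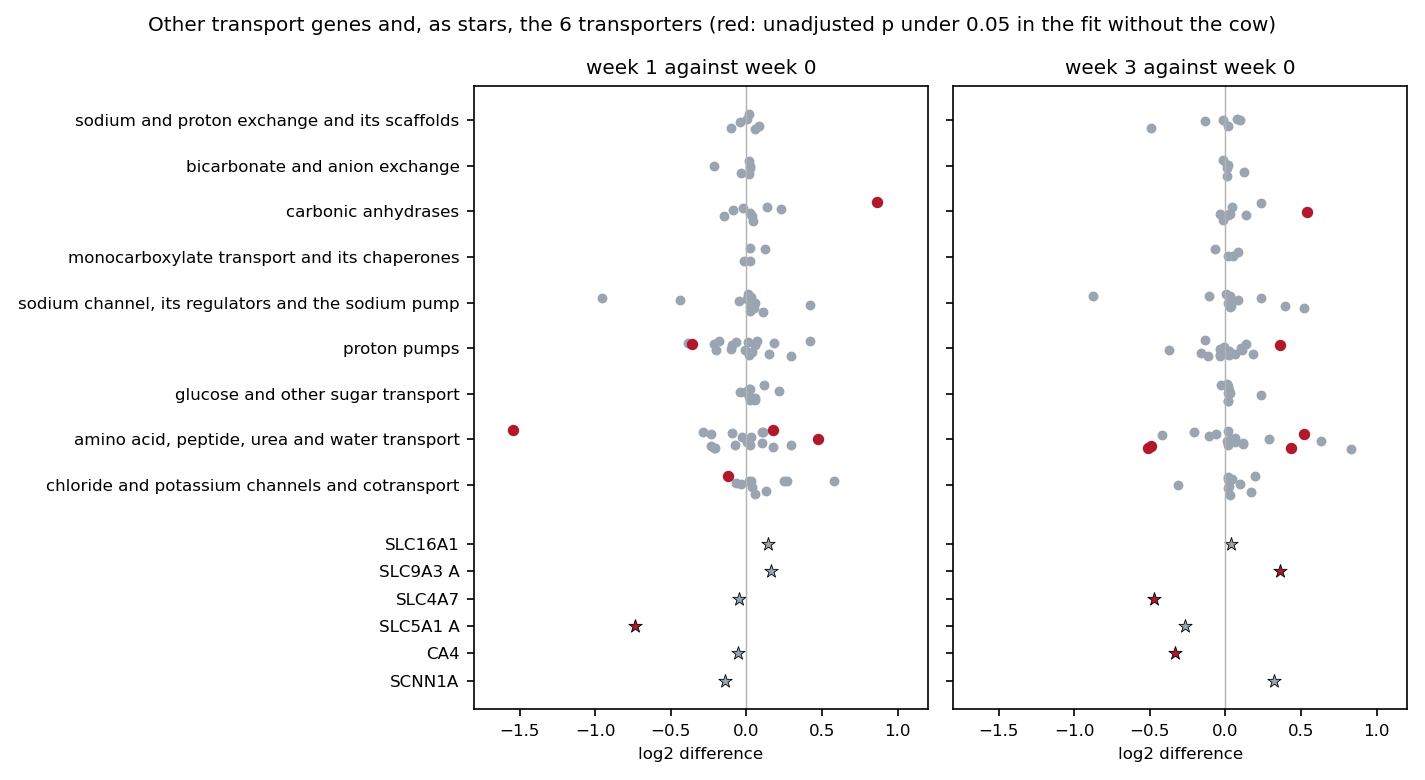
Difference from week 0 (horizontal axis, log2) of the 95 measured genes of the 9 transport lists, 1 point a gene, and below them the 6 transporters as stars, with red for an unadjusted p under 0.05. The list genes crowd around 0, with medians of 0.023 and 0.020, while SLC5A1 A at week 1 and SLC9A3 A, SLC4A7 and CA4 at week 3 are red. SLC9A3 B and C and SLC5A1 B are not drawn.

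Markers of the cell types that papillae can hold were followed beside the transporters, as the mean of each list on each array. The 10 measured genes of keratinized epithelium, of 20 listed, averaged 0.049 to 0.26 on the arrays of week 0, -0.17 to 0.092 at week 1 and -0.20 to -0.073 at week 3. The 10 fibroblast and matrix genes averaged -0.43 to 0.047, -0.40 to 0.25 and 0.084 to 0.35. Leukocyte genes, 11 of 12 measured, averaged -0.62 to 0.39, -0.41 to 0.11 and -0.18 to 0.60, and smooth muscle genes, all 6 measured, 0.050 to 0.33, -0.22 to 0.33 and -0.17 to 0.21. The 8 endothelial genes stayed between -0.17 and 0.13, and 5 of 9 genes of gland or intestinal epithelium between -0.12 and 0.086.

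From week 0 to week 3, 9 of 10 fibroblast genes, 9 of 11 leukocyte genes, 5 of 8 endothelial genes, 3 of 6 smooth muscle genes, 4 of 5 gland genes and 3 of 10 epithelial genes were above 0, beside 64.5 percent of all named genes. At an unadjusted p under 0.05, in either direction, there were 6 fibroblast genes, 2 epithelial genes, 1 leukocyte gene, 1 smooth muscle gene and 0 endothelial and gland genes. Of all named genes 3.13 percent were higher and 1.89 percent lower at that threshold. Over weeks 0, 1 and 3 the epithelial means of 0.16, -0.014 and -0.14 and the smooth muscle means of 0.19, 0.043 and -0.031 had the order of SLC4A7 and CA4. The fibroblast means of -0.25, -0.074 and 0.22 had the order of SLC9A3 A, and the leukocyte means of -0.060, -0.14 and 0.26 that of SCNN1A. The endothelial means of 0.0018, -0.011 and -0.0033 had the order of both SLC5A1 probe sets, and the gland means of -0.022, 0.0086 and -0.00071 that of SLC16A1. Every list thus had the order of some transporter. The transporters show most of the orders that 3 weekly means can have, so a match was nearly certain and carries no information. The epithelial array means of week 0 and week 3 did not overlap (0.049 to 0.26 against -0.20 to -0.073). Nor did the fibroblast ones (-0.43 to 0.047 against 0.084 to 0.35), while those of the remaining lists overlapped. From week 1 to week 3, 5 epithelial genes were higher and 5 lower, and 2 smooth muscle genes were higher and 4 lower. Since each gene is centred, none of these values shows whether a marker is at 0. The part of the marker genes in the differences of SLC9A3 A, SLC4A7, CA4, SCNN1A, SLC5A1 and SLC16A1 was not tested.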

How the data were processed

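Total RNA of rumen papillae was hybridised to Affymetrix arrays, per the labels' protocols after biotin labelling of cRNA made from 10 µg. The deposited values are log2 intensities that the authors made with GCRMA, per the submitters' processing notes, and each probe set has a median of 0 over the 12 arrays. The GCRMA version and the log base are not given in the sources used here. Base 2 was taken because the widest spread of 1 probe set, 11.2, read as natural logs means 74399-fold, above the 65535 levels of a 16-bit scanner. No genome build goes with the values, so no coordinates are given, and no sequences were used.

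Of 24016 probe sets other than 112 controls, 13292 named 1 gene, 86 several and 10638 none. All 6 member gene IDs were found in the gene table of ARS-UCD2.0. Values were not filtered, because they hold no level. limma 3.58.1 in R 4.3.3 fitted a mean per week over all 12 arrays (lmFit and eBayes, two-sided), with Benjamini-Hochberg adjustment. Fold changes are powers of 2 of the log2 differences, and intervals are at 95 percent. The scripts were tested on simulated data.

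The 4 cows were each sampled at all 3 weeks, so the cow pairs the arrays. Deviations from the weekly means correlated at 0.321 to 0.692 over the 12 pairs of arrays of 1 cow and at -0.443 to 0.0627 over the 36 pairs of different cows and weeks. A fit blocked on the cow is given beside the results. Replicates are separate animals, and no 2 arrays were identical.

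List genes were named when their unadjusted p was under 0.05 with the same sign in all 4 cows, up to 3 per list and comparison, and the 3 genes of highest r were named for each transporter. The transporters and the lists were chosen with earlier results of these data known. Alternatives were quantile normalization, centring of arrays, array weights, the block, only the 2 weeks compared, removal of the 40 percent of probe sets with the lowest SD, and leaving out arrays or cows.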

Additional observations from a re-analysis of the deposited data

How the results depend on the processing

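Of 618 alternative values of single transporter probe sets, 583 kept their direction and their side of the adjusted threshold. With array weights 9970, 7 and 97 probe sets were called for week 1 against week 0, week 3 against week 0 and week 3 against week 1, and 6112 in the F test. The 9970, out of 24016 probe sets, included both SLC5A1 probe sets (adjusted p = 0.0160) and SLC9A3 B (0.0364). With so large a share of all probe sets called, these calls do not set the members apart. The cause of the large count was not tested. Over the alternatives the adjusted p of SLC5A1 A and B at week 1 ran up to 1.0. Without the 3 spike-high arrays 5, 6, 12 and 8 were called, and 1 member passed the unadjusted threshold for week 3 against week 0. With the cow as a replicate block, which uses the pairing, 2 were called for week 1 against week 0 and 1 in the F test, and it changed no transporter's call. The paired sign flips of the SLC9A3 probe sets gave adjusted p of 0.45 to 1.0. Removing the probe sets of lowest SD called 2 at week 1, and quantile normalization 2 at week 3. On only the 2 weeks compared, 1 member passed for week 1 against week 0.

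Leaving out 1 array or 1 cow gave 0 to 45 called for week 1 against week 0, 0 to 2 for week 3 against week 0, 0 to 38 for week 3 against week 1 and 0 to 28 in the F test, in each but the second highest without week 1 of cow 1. Members at an unadjusted p under 0.05 then numbered 0 to 3, 1 to 4 and 0 to 3. The first count was 0 without cow 2 or cow 3, the second 1 without cow 1, 2 or 4 or without the week 0 or week 3 array of cow 4, and the third 0 without cow 2. Except for the block, the share of all probe sets at that unadjusted threshold is not given for the alternatives. Their member counts therefore cannot be read as many or few. Signs turned only for differences near 0. In SLC9A3 B the 3 differences were -0.0043, -0.0039 and 0.00044 after centring of arrays and -0.0021, -0.0020 and 0.00012 after quantile normalization, and the last was -0.030 to 0.0047 on leaving out. In SLC9A3 C they were 0.054, 0.033 and -0.021 without the spike-high arrays, the first was 0.034 and the third -0.052 with array weights, and on leaving out they were -0.041 to 0.035, -0.12 to 0.085 and -0.092 to 0.095. On leaving out, SLC4A7 and CA4 at week 1 were -0.15 to 0.073 and -0.093 to 0.010, and SLC16A1 at week 3 was -0.032 to 0.17. The number of 4 arrays a week limits the precision, and the centred values hold no signal over background.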
